A study of Canis lupus familiaris with 14 samples.

Results

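In RNA sequencing of canine osteosarcoma and matched normal bone, 200 genes varied more among the bones than among the tumors by the largest margins. They were taken from 11199 genes with a mean of at least 5 CPM (a gene's count over its library's total, times 1000000) over the 7 bones, out of 27655 genes with at least 1 count and 30951 listed. For each gene the standard deviation (SD) of log2(CPM + 1) over the 7 tumors was subtracted from that over the 7 bones, and the 200 largest differences were kept. The genes were thus chosen by their SDs in these same libraries, which are given below as a description, with no test.

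Each of 7 dogs with spontaneous osteosarcoma treated by amputation, named A to G, gave 1 bone and 1 tumor library, all before chemotherapy. The bone was the second phalanx of the amputated leg, a toe bone at least 1 joint away from the tumor, and the study describes its preparation as removing the marrow and all cells not enclosed in matrix. Dogs A and F were Golden Retrievers, B a Rottweiler, C a Doberman Pinscher, D and G Greyhounds and E a Great Pyranees. The tumor was in the left distal radius in A, C and E, the right distal radius in F, the left proximal humerus in D, the left distal femur in B and the right distal tibia in G. Bone RNA was isolated by a method made for bone and tumor RNA with Tri-Reagent and homogenization, so tissue and extraction cannot be told apart. Ages were not used here, and 1 library per tissue and dog gives no technical replicate.

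A phalanx is an organ rather than a single cell type. Osteoblasts lay down its mineral matrix and osteocytes live inside it, while fat, nerves, vessels, the cartilage of the joint surfaces, the fibrous periosteum and the insertions of tendons and ligaments all adjoin it. The described preparation was meant to leave only the cells enclosed in matrix. In bulk RNA, fewer cells of a type and less RNA per cell cannot be told apart.

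Library totals ran from 22564544 to 34479429 counts in bone and from 18650945 to 32887213 in tumor. Osteoblast genes were present in all 7 bones, with BGLAP, the bone matrix protein osteocalcin, at 239 to 1559.6 CPM and SPP1, osteopontin, at 1525 to 3890.2 CPM. The 3 red cell genes with a symbol were in bone at 0.551 to 2.18 CPM for EPB42, 0.551 to 2.05 CPM for HEMGN and 4.93 to 14.4 CPM for ICAM4. Gene symbols were available for 72 of the 200 genes (36.0%) and for 13.8% of the 11199. Those symbols come mainly from genes the study itself called, so the named genes are not a random sample of the 200.

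The bone library of dog E stood apart and touched most of these genes. In it 3 genes without a symbol, ENSCAFG00000017018, ENSCAFG00000002069 and ENSCAFG00000017855, took 43.5% of all counts, against 2.46% in the bone with the least, dog D. In the tumors the same 3 genes took 4.88% to 35.7%, the highest again in dog E. Because CPM is a share of the total, other genes were scaled down in that bone: it was the lowest of the 7 bones for 140 of the 200 genes (70.0%), and for 78.4% of all 11199. With library sizes scaled by the trimmed mean of M values (TMM), whose factor for this library was 0.641, bone E was lowest for 100 of the 200 (50.0%) and for 16.7% of all genes. Of the 200 genes, 122 stayed among the 200 with TMM scaling, and 174 kept a larger SD among bones than among tumors when dog E was left out altogether.

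**Figure D1:**
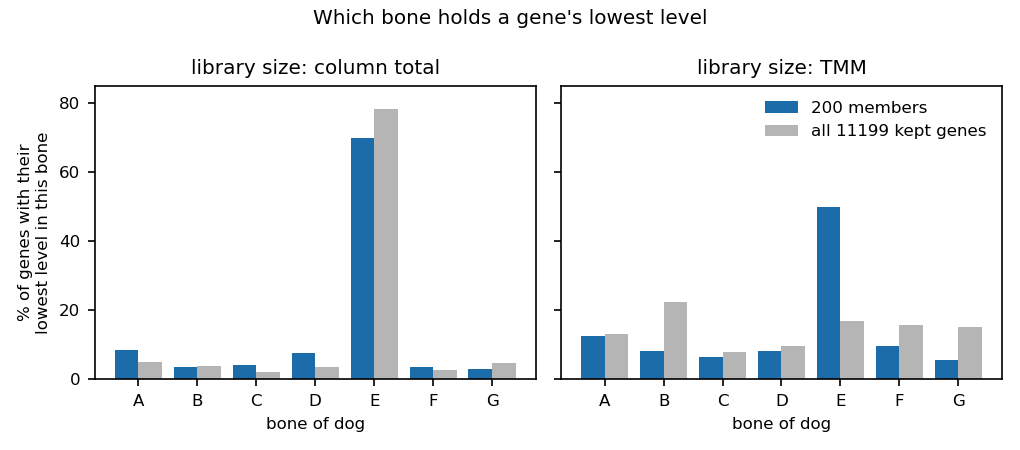
Percent of genes whose lowest level fell in the bone of each dog (horizontal axis), for the 200 genes (blue) and all 11199 genes kept (grey), with CPM from column totals (left) and from TMM-scaled library sizes (right). Bone E held the lowest level of 70.0% of the 200 genes by column total and of 50.0% by TMM, while its share of all genes went from 78.4% to 16.7%.

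Among the 200 genes the median SD was 1.13 log2 units over the bones and 0.51 over the tumors. Over all 11199 genes the order was the other way round, with medians of 0.43 and 0.63, and 19.8% of them (2219) had the larger SD among bones. Within the 200 the SD ran from 0.44 to 3.63 over the bones and from 0.01 to 2.61 over the tumors. The differences in SD within the 200 ran from 3.53 down to 0.32, with 32 genes over 1 and 112 at 0.5 or less. The last genes taken were ENSCAFG00000007976, ENSCAFG00000018602 and ENSCAFG00000043167, at 0.32, and the first left out were BNC2, ENSCAFG00000003370 and COL6A3, a chain of collagen VI, also at 0.32. Past the first 88 genes, which had a difference over 0.5, the set graded into the rest without a gap.

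**Figure D2:**
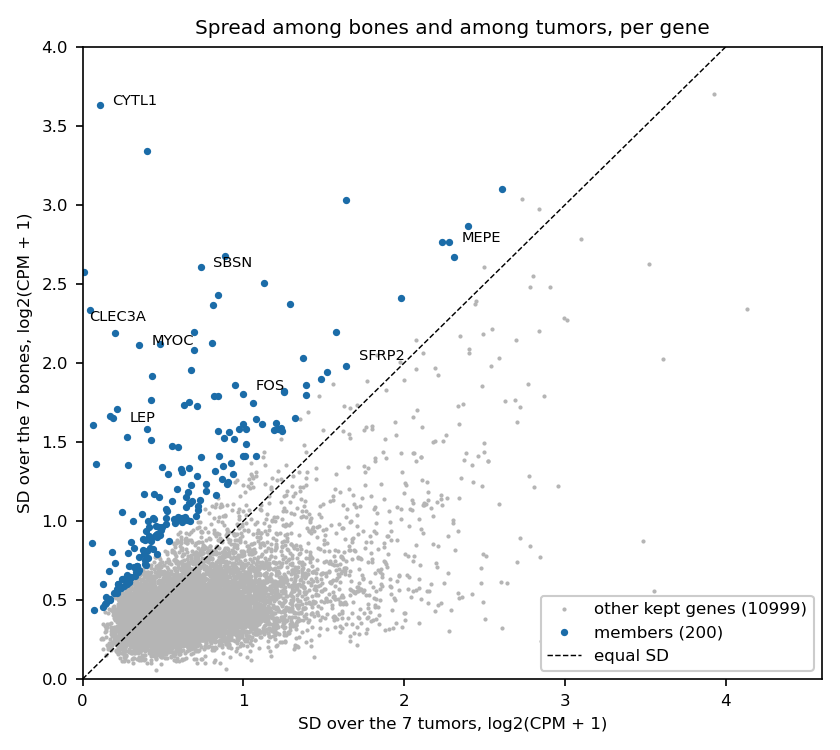
SD of log2(CPM + 1) over the 7 bones (vertical axis) against that over the 7 tumors (horizontal axis) for each of 11199 genes, with the 200 chosen genes in blue and the dashed line at equal SD. The blue points lie above the line by construction; CYTL1 sits at 3.63 among bones and 0.11 among tumors, and MEPE and SFRP2 are spread in both tissues.

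Steady in tumor meant nearly absent for some genes and evenly expressed for others. The mean over the tumors was under 1 CPM for 44 genes, which had a median SD of 0.40 there and 1.5 among bones. It was 1 to under 5 CPM for 34 genes, 5 to under 100 for 101 and 100 or more for 21. In the last class the median SDs were 1.01 among bones and 0.60 among tumors. Since 1 CPM is added before the logarithm, a gene near 0 in every tumor has a small SD whatever its counts do.

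The way the 200 genes moved over the 7 bones was sorted by correlation into groups, called blocks here. Average linkage at a height of 0.5 gave 5 blocks of at least 10 genes that held 166 of the 200, and 8 smaller ones with the other 34. The blocks were built on the same bone values, so their shapes are a description. Blocks 1, 2 and 3, with 91, 36 and 19 genes, were all low in bone E and differed in where they were high. Within them the median correlation over the 7 bones was 0.77, 0.75 and 0.70, and over the 6 bones without E it was 0.56, 0.59 and 0.44. In blocks 4 and 5, with 10 genes each, it was 0.76 and 0.88 with bone E and 0.75 and 0.79 without it.

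**Figure D3:**
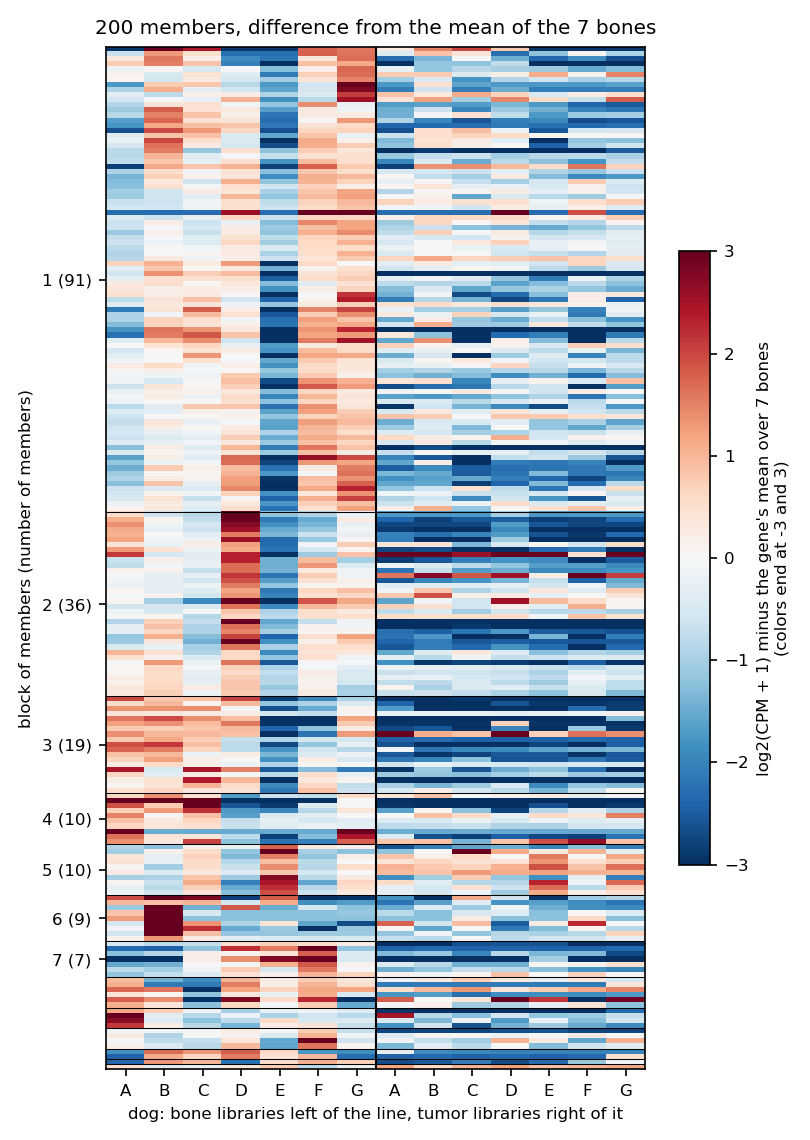
Level of each of the 200 genes (rows, ordered by block, with the number of genes in blocks 1 to 7 on the vertical axis) in the 7 bone and 7 tumor libraries, as log2(CPM + 1) minus the gene's mean over the bones. Column E of the bones is blue through blocks 1 to 3 and red in block 5, column D is red in block 2, and column B is red in block 6.

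**Figure D4:**
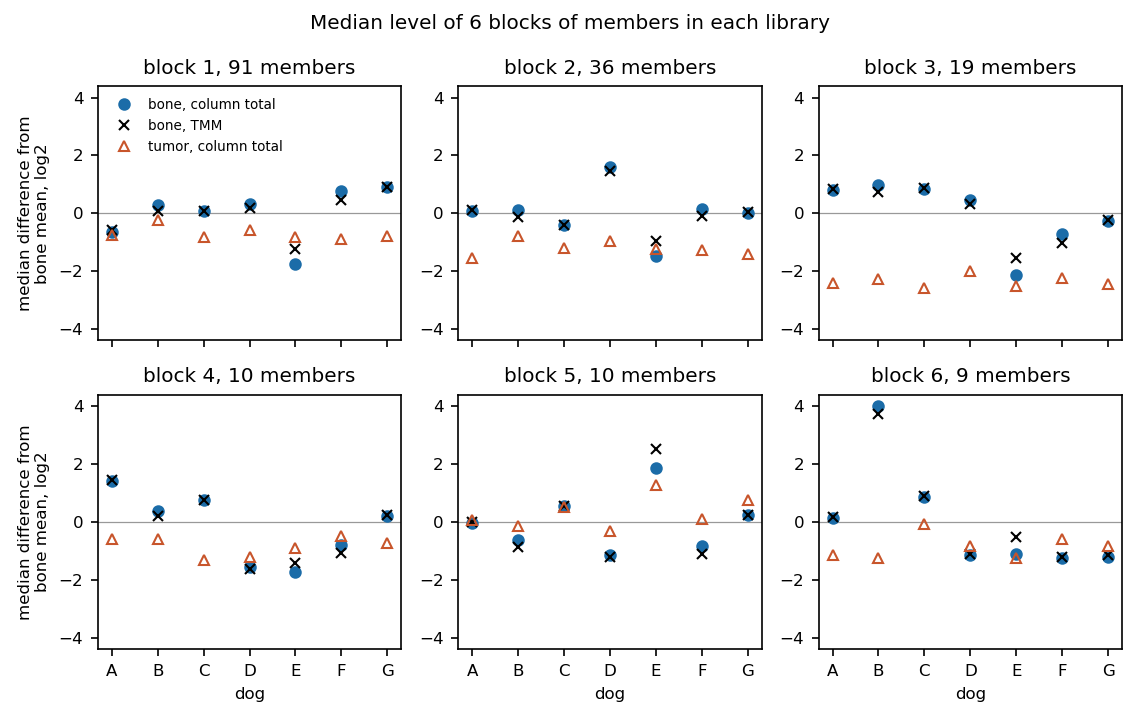
Median over the genes of blocks 1 to 6 of the difference from each gene's bone mean (log2, vertical axis) in each dog (horizontal axis), for bones by column total (filled circles), bones by TMM (crosses) and tumors by column total (open triangles). In block 2 bone D stands at 1.61 by column total and 1.46 by TMM, and in block 6 bone B stands at 4.01 and 3.73.

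CYTL1, a secreted protein made by chondrocytes, headed the 200 with an SD of 3.63 among bones and 0.11 among tumors. Its level was 165 CPM in the bones of A and B, 222 in C, 13.6 in G, 0.591 in F and 0.0918 in D, and no read was counted in E. The 7 tumors held between 0 and 0.201 CPM. Bones A, B and C thus carried 5051, 3715 and 6503 counts of this gene, bones D and F carried 3 and 19, and leaving out dog E left the difference in SD at 3.40. CLEC3A, a lectin of cartilage and tendon matrix, ranked all 7 bones in the same order, with 77.1 CPM in bone C, 33.5 in A, 14.9 in B, 8.54 in G and 5.91 in F. In bone D it was at 0.551 CPM, just above the tumors' range of 0 to 0.487, and in bone E at 0.261, within it. Both genes sat in block 4, whose median was highest in bone A (1.43 above the bone mean) and lowest in bones E and D (-1.74 and -1.57). SERPINA3, a secreted protease inhibitor of the acute phase, was in the same block with a different leader, at 37.0 CPM in bone G, 20.9 in A and 0 in E.

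The other cartilage genes among the 200 did not all keep that order. FRZB, a secreted Wnt antagonist of articular cartilage, stood at 117, 116 and 121 CPM in bones A, B and C, between 15.3 and 48.9 in D, F and G, and at 6.44 in E. MATN3, the matrix protein matrilin-3, was at 25.3, 23.6, 25.4 and 27.5 CPM in bones A, B, C and E and at 2.65 to 8.05 in D, F and G. CILP, a matrix protein of the middle zone of articular cartilage, ranged from 8.73 CPM in bone E to 73.9 in C, with 13.3 to 26.4 in 6 tumors and 8.85 in tumor E. FRZB and MATN3 shared high values in bones A, B and C, while CILP was as high in D and F, and bone E was at the bottom for FRZB and CILP and at the top for MATN3. Of the 25 cartilage genes listed, 6 had a symbol here. The pair outside the 200 were CHAD, chondroadherin, at 133 CPM in bone D to 3312 in E, and COL9A1, a collagen IX chain, at 5.41 to 26.4. Their SDs among tumors, 2.18 and 1.97, exceeded those among bones, 1.50 and 0.66. The list had a median difference in SD of 0.64 over its 6 genes, beside -0.19 over all 11199. Of these 6, 4 were chosen on that same difference, so nothing is read from this median.

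Among 4 tendon and ligament genes with a symbol, 3 belonged to the 200. MYOC, myocilin, a secreted protein abundant in fibrous connective tissue, stood at 487 CPM in bone C, 180.3 in D, between 97.4 and 125 in A, B, F and G, and 3.25 in E. ANGPTL7, an angiopoietin-like secreted protein, was at 10.2 to 41.3 CPM in 6 bones and 0.464 in E. In the tumors MYOC did not pass 0.851 CPM and ANGPTL7 did not pass 0.432. The spread of both rested largely on bone E: without that dog the SD among bones fell to 0.87 for MYOC and 0.65 for ANGPTL7, though it still exceeded that among tumors, by 0.53 and 0.45. ABI3BP, a matrix protein that is not one of the 200, reached 631 CPM in bone G and 202 in tumor B, with a larger SD among tumors.

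Of the nerve genes, S100B, a calcium-binding protein of glia and also of fat cells, was at 33.9 CPM in bone A, 30.5 in D, 18.5 in B, 14.5 in G, 11.5 in C, 9.06 in F and 2.15 in E. Tumors held 0.707 to 2.37 CPM, so the groups overlapped only through bone E. S100B fell into block 2 beside the fat genes. SCN7A, a sodium channel of Schwann cells and sensory neurons that is in no list and was picked out after its values were seen, fell into block 3, with 13.9 CPM in bone B, 12.9 in A and 1.91 in E. SOX10, the transcription factor of the Schwann lineage, was at 1.86 to 12.9 CPM in bone with a difference in SD of 0.18 and was not among the 200. MBP, a myelin protein, NGFR, a neurotrophin receptor, and MAL, a membrane protein found also outside nerve, had the larger SD among tumors.

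Block 3 as a whole, with 13 of its 19 genes named, was high in bones B, C and A (medians of 0.97, 0.84 and 0.79 above the bone mean) and low in E, F and G (-2.14, -0.73 and -0.27). With TMM scaling bone E moved to -1.55 and F to -1.03, and without dog E the bones of F and G stood at -0.86 and -0.64. In the tumors the block lay between -2.58 and -1.99. It also held AGT, the precursor of angiotensin, COL20A1, a fibril-associated collagen chain, IL17B, a cytokine of the interleukin-17 family, and PPP1R1B, a phosphatase inhibitor best known in neurons. AGT was at 65.0 and 62.8 CPM in bones D and A and at 1.28 in E. These 4 genes are in no marker list used here and were picked out after their values were seen. ACTA1, skeletal muscle actin, was placed in this block too, with 16.4 to 23.5 CPM in 5 bones, 1.06 in F and no count in E. Its tumors ranged from 14.5 to 266 CPM, so it was steady in neither tissue, and without dog E its SD was larger among tumors (a difference of -0.15).

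The 5 fat genes among the 200 were highest in the bone of dog D. LEP, leptin, the hormone of adipocytes, was at 64.2 CPM in bone D, 16.8 in A, 8.98 in G, 7.67 in B, 4.03 in C, 1.90 in F and 0.899 in E. The 7 tumors held 0.182 to 0.667 CPM, below every bone. TRARG1, a regulator of glucose transporter traffic in fat cells, had the same order at both ends, with 43.7 CPM in D and 16.3 in A against 0.899 in E. CIDEC, a lipid droplet protein, was at 97.1 CPM in D, 35.2 in A and 4.84 in E, and LIPE, hormone-sensitive lipase, at 198 in D, 139 in A and 25.1 in E. PLIN4, a perilipin that coats lipid droplets, ran from 7.57 CPM in E to 259 in D. In all 5 genes bone D was first, A second and E last by column total. With TMM scaling D and A kept their places, while F came below E for CIDEC (5.07 against 7.56 CPM), TRARG1 (1.18 against 1.40) and LIPE (32.9 against 39.2).

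The other 13 adipocyte genes with a symbol shared the bones' pattern in part, but their differences in SD fell short of the limit. Their SDs among tumors ran from 0.36 for KLF15 to 2.06 for FABP4. Those of the 5 fat genes in the set ran from 0.21 for LEP to 1.19 for PLIN4, so the ranges overlapped. PLIN1, the main perilipin of fat, was at 518 CPM in bone D and 15.1 in E, and tumor D held 25.6 against 0.794 to 6.01 in the other tumors, which gave a difference in SD of 0.29. FABP4, the fatty acid carrier of adipocytes, spread over 183 to 1849 CPM in bone, but its SD among tumors was larger, 2.06 against 1.11. Of the 18 genes, 13 had the larger SD among bones (12 with TMM), where 19.8% of all genes did (15.5% with TMM). Since 5 of the 18 were chosen on that same difference, this share is partly built in. The summed level of the 18 genes was 5095 CPM in bone D, 1973 in B, 1925 in A and 579.6 in E, and 134 to 511 CPM in tumor.

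The 5 fat genes belonged to block 2, in which bone D was highest for 34 of 36 genes and bone E lowest for 33 (32 and 19 with TMM). Bone D lay 1.61 log2 units above the bone mean and bone E at -1.5, while the tumors lay between -1.56 and -0.79. FMO2, a flavin monooxygenase, was at 119 CPM in bone D, 19.6 in B and 3.25 in E, and at no more than 0.118 in any tumor. Its SD was 1.61 among bones and 0.06 among tumors, a difference of 1.54, the largest of the block, that was 1.53 without dog E. The block also contained genes that are not lipid genes: NPY1R, a receptor of neuropeptide Y, MMRN1, multimerin-1 of platelets and lymphatic endothelium, SVEP1, a large adhesion protein of mesenchymal cells, and TIMP4, an inhibitor of matrix metalloproteinases. SVEP1 stood at 1139 CPM in bone D and 94.3 to 408 in the others. These 4 were picked out after their values were seen, and with TMM scaling MMRN1 and SVEP1 dropped to differences of 0.05 and 0.08 and left the 200.

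Block 1, the largest, was high in the bones of dogs G and F (medians of 0.89 and 0.78) and low in E (-1.77) and A (-0.63). With TMM scaling 44 of its 91 genes stayed among the 200, and 72 kept the larger SD among bones without dog E. It held 3 of the 4 immediate early genes in the set, transcription factors that cells switch on within minutes of stimulation or handling. FOS was at 1280.4 CPM in bone F, 867 in G, 584 in D, 231 to 455 in A, B and C, and 27.1 in E. FOSB ran in the same direction, at 646 CPM in F, 418 in G, 347 in D, 33.8 to 118 in A, B and C, and 3.34 in E. JUNB stood at 886 CPM in F and 111 in E. In tumors FOS lay at 32.3 to 236 CPM, FOSB at 7.51 to 71.3 and JUNB at 95.2 to 232, and tumor E was above bone E for all 3.

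Without dog E the difference in SD of these immediate early genes was 0.0012 for FOS, 0.07 for JUNB and 0.55 for FOSB. With TMM it was 0.36, -0.03 and 1.01. EGR3, the fourth, was at 14.9 CPM in bone F and 1.64 to 8.05 in the rest, in another block, and its mean fell under 5 CPM with TMM. Of 9 listed immediate early and heat shock genes that were kept, 8 had the larger SD among bones by column total, and 4 of 8 by TMM. Since 4 of the 9 were chosen on that same difference, the first share is partly built in.

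SBSN, suprabasin, a secreted protein of stratified epithelia, was also in block 1. It was at 251 CPM in bone G, 158, 131, 129 and 64.9 in B, C, F and D, 14.4 in A and 0.493 in E, with 0.274 to 3.05 in tumors. PERP, a desmosome protein and the only other epidermis gene with a symbol, was at 0.725 to 12.3 CPM in bone. The defining keratins of epidermis had no symbol here. Without dog E the difference in SD of SBSN was 0.79. Further named genes of the block were GRIA4, a glutamate receptor subunit, OSR1, a transcription factor of embryonic limb connective tissue, SCARA5, a scavenger receptor of fibroblast-like cells, PCOLCE2, an enhancer of procollagen processing, and GALNT15, a glycosyltransferase. GALNT15 was at 283 CPM in bone F, 108 to 185 in B, D and G, 74.7 in C, 38.6 in A and 20.9 in E, and at 1.65 to 13.7 in tumors. These were picked out after their values were seen, and SCARA5 and PCOLCE2 had the larger SD among tumors once dog E was left out (-0.25 and -0.05).

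**Figure D5:**
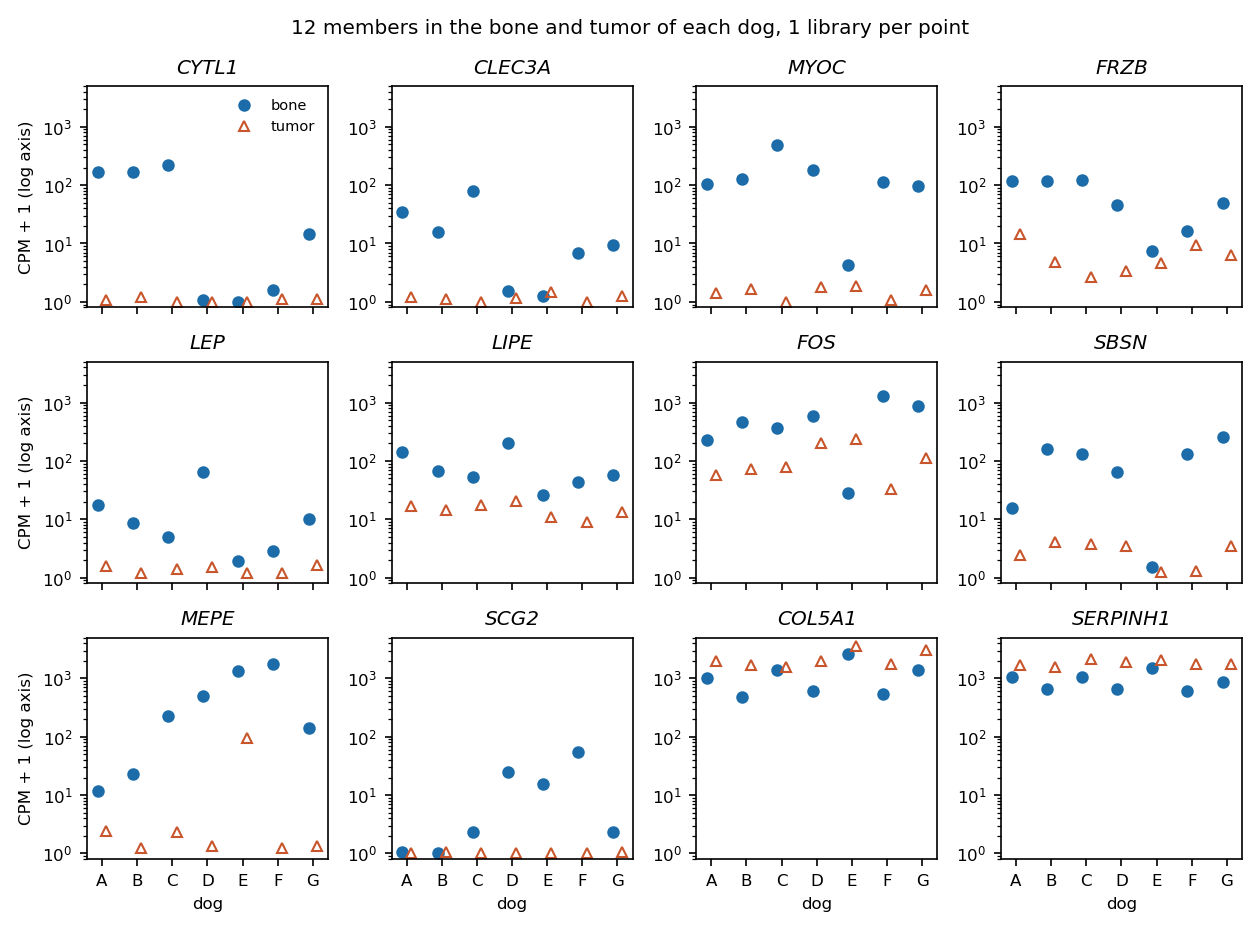
CPM + 1 on a log axis of 12 of the 200 genes in the bone (filled circles) and tumor (open triangles) of each dog, 1 library per point. CYTL1 and CLEC3A were high in bones A, B and C, LEP and LIPE in D, MEPE and SCG2 in D, E and F, and COL5A1 in E, where the FOS and SBSN circles were lowest.

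Of the osteocyte genes with a symbol, only MEPE, an extracellular phosphoprotein made by osteocytes embedded in matrix, belonged to the 200. It was at 1767 CPM in bone F, 1323 in E, 506 in D, 225 in C, 139 in G, 22.1 in B and 10.8 in A. Tumor E held 94.9 CPM and the other 6 held 0.235 to 1.39, so MEPE varied widely in both tissues, with SDs of 2.76 and 2.28. Without dog E the difference rose from 0.48 to 2.26. SOST, sclerostin, another osteocyte product, kept the same order of bones at both ends (1569 CPM in F, 24.1 in A) but had the larger SD among tumors. The other osteocyte genes kept, DMP1, a matrix phosphoprotein, and PHEX, an endopeptidase, also had the larger SD among tumors. DMP1 was at 1457 CPM in bone F and 229 to 486 in the others, and PHEX at 61.4 in D, 47.7 in F, 39.9 in E and 6.56 to 15.2 in the rest. MEPE shared block 7 with SCG2, secretogranin II, a granule protein of neuroendocrine cells, which was at 54.3 CPM in bone F, 23.9 in D, 14.5 in E and at 0 to 1.35 in the other 4. The tumors held at most 0.0671 CPM of SCG2. In this block bones A and B were lowest (-1.25 and -1.0) and F highest (1.80, with E at 0.72). With TMM scaling F and E stood at 1.48 and 1.37, and E led F for MEPE (2065 against 1363 CPM). For CYTL1 bones A and B were among the highest and F among the low ones.

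Block 5 was the single large block with bone E on top, for all 10 of its genes. The 3 abundant genes that crowded that library were in it, and the first of them went from 12978 CPM in bone D to 294642 in E, and from 29577 to 263031 in tumor. COL5A1, a chain of the fibrillar collagen V, was at 2592 CPM in bone E, 1392, 1386 and 1016 in C, G and A, and 471 to 605 in B, D and F. SERPINH1, the collagen chaperone HSP47, was at 1533 CPM in bone E and 605 to 1067 in the others. Its tumors stayed between 1592 and 2129.8 CPM, an SD of 0.15, so here the tumors were even at a high level rather than empty. Unlike most of the set these genes spread more after TMM scaling: bone E moved from 1.86 to 2.53 above the bone mean, and all 10 stayed among the 200. SEMA3D, a secreted guidance protein, was at 49.6 CPM in bone E and 5.23 to 16.7 in the rest, and at 1.44 to 5.25 in tumors.

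Block 6, of 9 genes, stood for the bone of dog B. Its median there was 4.01 log2 units above the bone mean, and bone B was highest for 8 of the 9 (7 with TMM). The study's sample description gives bone B the lowest RNA integrity of all samples, and its part in this block was not tested. ABTB1, an ankyrin-repeat protein, was at 67.8 CPM in bone B, 15.5 in D and 0.609 to 2.15 in the others. ENSCAFG00000029384 was at 451 CPM in bone B and 0.778 to 74.4 in the others, and at 2.71 to 16.2 in tumors. The remaining gene, led by bone E, was MATN3, described above. With 7 of 9 genes lacking a symbol, this block cannot be assigned to a tissue component.

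In 21 of the 200 genes at least 1 bone had no count at all, where 49 of all 11199 genes did. A bone at 0 beside a mean of at least 5 CPM gives a large SD, so the rule itself favors such genes. No count allows a level of up to 0.0870 to 0.161 CPM, taking 3 counts per library as the limit and counting error only. Of these genes 8 lacked counts in 1 bone, 9 in 2, 2 in 3, 1 in 4 and 1 in 5, and each had another bone over 10 CPM. ENSCAFG00000014422 was the extreme: bone C had no count, the other bones held 301 to 609.8 CPM, and tumor C of the same dog held 462 CPM from 8612 counts. ENSCAFG00000045234 was close to this kind, with 1131 and 1418 counts in bones A and G and exactly 1 count in each of the other 12 libraries.

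Some of the absent genes were absent from both samples of a dog. Over the 21 genes, 41 dog and gene pairs had no count in bone, and in 22 of them the tumor of the same dog had none either. Of the 106 pairs with counts in bone, 34 had none in tumor. Pairs of the same gene are not independent, and some genes were missing from nearly every tumor. LOC607979 was counted in tumor D only, and ENSCAFG00000005350 and ENSCAFG00000024521 in tumor G only. Sharing within a dog was therefore not tested by these counts. ENSCAFG00000028835 was counted in bones D, F and G (28.0, 50.4 and 43.9 CPM) and in tumors D and F (44.2 and 17.6), and in no other library. ENSCAFG00000046094 was counted in bones B and A (71.2 and 4.67 CPM) and in tumors C and F. Of the 21, 6 had a symbol: CYTL1, SCG2, SERPINA3, ACTA1, ADGRG4, an adhesion receptor, and LOC607979.

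Markers of several other components had no gene with a symbol among the 200. None of the kept genes for osteoblasts (5), osteoclasts (8), synovial lining (1), simple epithelium (1), endothelium (3), smooth muscle and pericytes (3), interferon response (3) or cell cycle (8) was chosen. Lists were matched by symbol, which reached 5 of 13 osteoblast, 8 of 17 osteoclast, 1 of 8 synovial lining and 3 of 15 endothelium genes. The other listed genes could be among the 128 without a symbol, so their absence is not known. The median difference in SD was -0.94 for osteoblasts, -1.31 for osteoclasts, -0.10 for endothelium, -0.33 for smooth muscle and pericytes, -1.06 for interferon response and -0.59 for cell cycle. Lists for neutrophils, B cells, T cells, macrophages and red cells had 1 to 3 genes with a symbol each, and those for megakaryocytes and MHC class II had none, so blood cells were hardly covered. Over all lists 23 of the 200 genes were placed, 49 named genes were in no list, and 128 without a symbol could not be matched.

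The level of the 200 genes was also compared between tumor and bone with edgeR on all 27655 genes, with dog as a block. Genes counted as called had a false discovery rate under 0.05, a base mean over 10 counts and more than a 2-fold change. Of the 200, 47 were called lower in tumor and 4 higher, and 149 were not called, where 1.79% and 1.35% of all genes were called in these directions. The rule asked for a level in bone and for none in tumor, so it leans toward genes lower in tumor, and nothing is read from the difference in these shares. The median log2 fold change was -0.88 over the 200 and -0.05 over all genes tested. All 7 bones lay above all 7 tumors for 22 of the 200 and for 1.64% of the 11199. DESeq2, fitted to the same counts, called 79 of the 200 lower, where it called 4.46% of all genes lower.

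Lower in tumor were 15 of the 36 genes in block 2 and 12 of the 19 in block 3, but 10 of the 91 in block 1. FMO2 fell by 9.36 on the log2 scale (SE 0.63, edgeR adjusted p = 0.000859), CIDEC by 5.06 (SE 0.45, adjusted p = 0.00195) and LIPE by 2.24 (SE 0.24, adjusted p = 0.00252), each lower in the tumor of all 7 dogs. CYTL1 fell by 8.73 (SE 1.3, adjusted p = 0.00865), with bones D, E and F inside or near the tumors' range. SCG2 was also called (edgeR adjusted p = 0.0221) but lost its call without dog D, E or F (adjusted p up to 0.101). FRZB (adjusted p = 0.0356) lost its call without A, B, C, D or G, with up to 0.0865. FOS, FOSB and JUNB were not called by edgeR with all dogs (adjusted p = 0.173, 0.240 and 0.0765) and were called lower without dog E (0.0221, 0.0285 and 0.0146). DESeq2 called all 3 lower with all dogs (adjusted p = 0.00458, 0.0272 and 0.0017). CLEC3A, with a log2 fold change of -5.46, just missed the threshold in edgeR (adjusted p = 0.0516) and passed it without dog E (0.0174), and in DESeq2 with all dogs (2.34e-05).

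The 4 genes called higher in tumor were COL5A1, SERPINH1, CCL2 and NKAIN1, a membrane protein that binds the sodium pump. CCL2, the chemokine that draws monocytes, was at 36.8 CPM in bone D, 13.4 in F, 6.16 to 7.22 in A, B, C and G and 0.870 in E, and at 9.0 to 68.6 in tumors. It rose by 2.37 on the log2 scale (SE 0.34, edgeR adjusted p = 0.00614). SERPINH1 rose by 1.17 (adjusted p = 0.0215) and NKAIN1 by 1.20 (adjusted p = 0.0335). Without the dog as a block 2 of the 200 were called higher, and neither SERPINH1 nor NKAIN1 was (adjusted p = 0.106 and 0.111). Leaving out A, B, D, F or G left 1 gene called higher, leaving out C left 3, and CCL2 stayed called in each (adjusted p from 0.00728 to 0.0237).

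Set side by side, these genes ranked the 7 bones differently. The 5 fat genes of the set put D first and E last (F last for 3 of them with TMM), CYTL1 and CLEC3A put C, A and B ahead of D and E, MEPE and SOST put F and E first and A last (PHEX put D first and B last), and FOS, FOSB and JUNB put F first and E last. Each bone is 1 library, so how far a rank would vary between samples of the same bone was not measured.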

How the data were processed

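PolyA RNA of 7 bones and 7 tumors was sequenced. Per the labels and the study's methods, the authors trimmed reads with Trimmomatic, mapped them to CanFam3.1 with HISAT2 2.2.1 and counted them per Ensembl gene with StringTie 1.3.3. The deposited values are raw counts, not normalized. Strand and multi-mapping settings are not given in the sources used here, so paralogs and overlapping genes are uncertain. CPM was the count over the column total, with a pseudocount of 1 CPM before the log2. The genes and marker lists (24 lists, 393 genes) were chosen with earlier results of these data known. Symbols came from the study's supplementary tables (2292 genes), and all others keep their Ensembl identifier. Coordinates and sequences were not used here. Some genes of the set are not reported here.

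Tumor and bone were compared with edgeR 4.0.16 (TMM, quasi-likelihood test, dog as block, R 4.3.3) over all genes with at least 1 count, with Benjamini-Hochberg adjustment. DESeq2 1.42.0 and other scalings, filters, pseudocounts and left-out dogs were alternatives. The edgeR step was checked on simulated counts. Dog letters pair the samples since both come from the same animal. Over 18516 genes the correlation of paired deviations was -0.0109 to 0.131. P-values with dog as a block measure the spread between dogs of the tumor against bone difference. Intervals and limits cover counting error only.

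Genes were named by fixed rules: the 10 largest differences in SD, up to 4 per marker list with at least 2 genes in the set, the 3 on either side of the limit, the 5 highest in bone, the 3 smallest adjusted p per direction and the 2 with the largest lead per bone. Other genes of the set that are in no marker list were picked after their values were seen, among them SERPINA3, COL5A1, SEMA3D and ABTB1. Further genes of the marker lists are given beside the named ones.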

Additional observations from a re-analysis of the deposited data

Results flagged for a closer look

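The sets were the named genes, the library totals and the share of the 3 abundant genes, in bone and in tumor. In 94 such sets of 7 libraries, 17 had 1 library far from the rest, 10 in bone and 7 in tumor. The measure is the gap to the next library as a share of the whole range. It was taken on the log2 scale for genes. For the library totals and the share of the 3 abundant genes it was taken on the values themselves, without a logarithm. Chance alone marks about 1 set in 20, and the bones were chosen for spread, so the bone marks are partly built in.

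Bone E was the low one for MYOC (3.25 CPM, gap 0.663), ANGPTL7 (0.464 CPM, 0.603) and JUNB (111 CPM, 0.610). It was the high one for ENSCAFG00000029580 (31.5 CPM, 0.641) and for the share of counts in the 3 abundant genes (43.5%, 0.656). The gap of that share was taken on the percent and was not tested on the log2 scale. Bone B stood high for ENSCAFG00000033531 (52.0 CPM, 0.631) and ENSCAFG00000046094 (71.2 CPM, 0.595). Bone C stood low for ENSCAFG00000014422, with no count (0.890).

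For a pair of genes the same dog stood out in both tissues. ENSCAFG00000003424 was at 35.0 CPM in bone A (0.835) and 14.7 in tumor A (0.802), and at no more than 1.44 CPM in any other library. ENSCAFG00000033086 was at 29.6 CPM in bone D (0.595) and was counted in tumor D only, at 0.668 CPM (1).

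Among tumors, ENSCAFG00000005350 was counted in G only (3.68 CPM, 1), ADGRG4 was high in B (3.62 CPM, 0.933), TRARG1 in D (1.10 CPM, 0.845) and MATN3 in C (9.01 CPM, 0.683), and ENSCAFG00000007976 was low in E (17.1 CPM, 0.569).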

How the results depend on the processing

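Of the 200, 122 stayed with TMM scaling, 118 with DESeq2 size factors, 123 with the variance stabilizing transformation, 77 with a mean of at least 1 CPM, 101 with at least 20, 76 with the median absolute deviation and 119 with the ratio of SDs. Leaving out the bone of dog E alone kept 131, and leaving out 1 dog at a time kept 127 to 160, the fewest without E. In all 7 of these and all 4 rescalings 45 genes stayed. The genes without a count in some bone numbered 21, and 10 with the ratio of SDs. Members called lower went from 47 to 79 with DESeq2, while all genes called lower went from 1.79% to 4.46%. With 1 dog left out they numbered 35 to 54, the most without E, against 1.22% to 1.52% of all genes. Without the replicate block that pairs the samples of a dog, 58 were called lower and 2 higher. Members called higher numbered 1 to 4 with 1 dog left out. No called fold change of a named gene turned its direction, but those of 7 genes that were never called did. Without the block the log2 fold change went from 0.90 to -3.50 for ENSCAFG00000033531, from 2.08 to -0.86 for ENSCAFG00000029580, from 0.20 to -0.20 for ENSCAFG00000002069 and from 0.07 to -0.30 for ENSCAFG00000017855. With 1 dog left out it ran from -5.76 to 3.84 for ENSCAFG00000046094, -0.30 to 2.48 for ENSCAFG00000033531, -1.11 to 0.17 for ENSCAFG00000029384, -0.24 to 0.49 for ENSCAFG00000014422 and -0.10 to 0.23 for ENSCAFG00000017855. The rescaling without the 3 abundant genes and the settings on zeros, on block correlations, on the order of bones and on bone E were chosen after seeing the data. Depth limits low levels: 3 counts stand for 0.0870 to 0.161 CPM in these libraries.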
